A study of Sus scrofa with 24 samples.

Results

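The NR4A family comprises 3 orphan nuclear receptors, NR4A1 (also known as Nur77), NR4A2 (Nurr1) and NR4A3 (NOR1), and all 3 had a row among the 25880 pig genes of the deposited count table. They were chosen by symbol, with earlier results of these libraries known, among them the low level of NR4A3 under SB203580 plus flagellin at 2 h. That comparison is therefore given as values without a test. NR4A1 (ENSSSCG00000031321) lay on chromosome 5 from 17399324 to 17411053 on the plus strand, NR4A2 (ENSSSCG00000015871) on chromosome 15 from 63485314 to 63505728 on the minus strand, and NR4A3 (ENSSSCG00000005385) on chromosome 1 from 241569830 to 241613629 on the plus strand, as the deposited table gives the positions. No other gene of that table overlapped any of them. The RefSeq table for the assembly Sscrofa11.1 lists the NR4A1 locus as a pseudogene and the other two as protein-coding.

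The cells were bronchial epithelial cells of wild-type pigs aged 1 month, grown on membranes at an air-liquid interface. For 1 h each culture was kept in solvent (DMSO) or in SB203580, which inhibits p38 MAP kinases, at 20 µM. It then received PBS or 100 ng/ml flagellin, the flagellum protein of bacteria that the receptor TLR5 recognises, for 2 h or 24 h. The 6 groups of 4 libraries were DMSO then PBS (PBS below), DMSO then flagellin (flagellin below) and SB203580 then flagellin, each at 2 h and 24 h. No group with SB203580 and without flagellin was analysed here, and the labels do not say whether replicates came from separate animals or cultures. The p-values therefore refer to the variation among these libraries alone, part of which may be technical.

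Nuclear receptors are transcription factors that bind DNA and in most cases are switched by a lipid-soluble ligand. The NR4A receptors are unusual in that their ligand pocket is filled by bulky side chains, so that their activity follows largely from how much of the protein is made. Their genes are immediate early genes, which are transcribed within minutes of a stimulus from transcription factors already present, such as CREB, SRF and MEF2, and whose transcripts are short-lived. In macrophages the family is known for restraining NF-κB signalling and for roles in survival and metabolism.

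Libraries held 26345945 to 36267289 counts in pig genes, and a level of 3 counts corresponded to 0.0827 to 0.114 CPM (counts scaled to library size, with TMM factors apart from this floor). All 3 members passed the filter on low counts, as did 14172 genes in all. Libraries numbered 1 or 2 differed from those numbered 3 or 4. The Y-linked gene EIF1AY was at 17.9 to 32.2 CPM in the former and at 0 to 0.0284 CPM in the latter. The squamous epithelium markers, of which 6 of 11 were matched, summed to 2163 to 12989 CPM in replicates 1 and 2 and to 1679 to 2331 CPM in replicates 3 and 4. The 7 matched epithelial markers summed to 3890 to 6300 CPM over all libraries. The epithelial adhesion genes CDH1 (1180 to 2186 CPM) and EPCAM (243 to 401 CPM) were high in every library. The pan-leukocyte gene PTPRC was at 0 in 9 of 12 libraries of each set and at most at 0.113 CPM, and the T cell gene CD3E was at 0 in all. The monocyte gene CD14 was at 11.2 to 118.7 CPM in replicates 1 and 2 and at 6.30 to 21.5 CPM in replicates 3 and 4, and the macrophage gene CD68 was at 5.36 to 28.4 CPM over all libraries. The 15 matched of 16 leukocyte markers summed to 54.9 to 177 CPM in replicates 1 and 2 and to 32.3 to 64.0 CPM in replicates 3 and 4. Values within each set of replicates are given beside the pooled ones, and the part of these markers in the results was not tested.

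All 3 members had higher means at 2 h than at 24 h in each condition, and NR4A3 most steeply so. For NR4A2 with SB203580 plus flagellin the groups overlapped and the difference of -0.20 on the log2 scale did not pass the test (edgeR adjusted p = 0.665). NR4A1 had a mean of 25.2 ± 13.0 CPM (SD, n = 4) in PBS at 2 h and of 6.03 ± 1.55 CPM (SD, n = 4) in PBS at 24 h. NR4A2 had 22.4 ± 4.82 CPM (SD, n = 4) at 2 h and 12.7 ± 2.79 CPM (SD, n = 4) at 24 h in the same condition. NR4A3 had 8.27 ± 3.17 CPM (SD, n = 4) and 0.438 ± 0.338 CPM (SD, n = 4). The difference between times was present without flagellin, whereas no member passed the test for flagellin against PBS at either time. In bulk RNA, fewer cells that make a transcript and less of it per cell cannot be told apart.

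**Figure D1:**
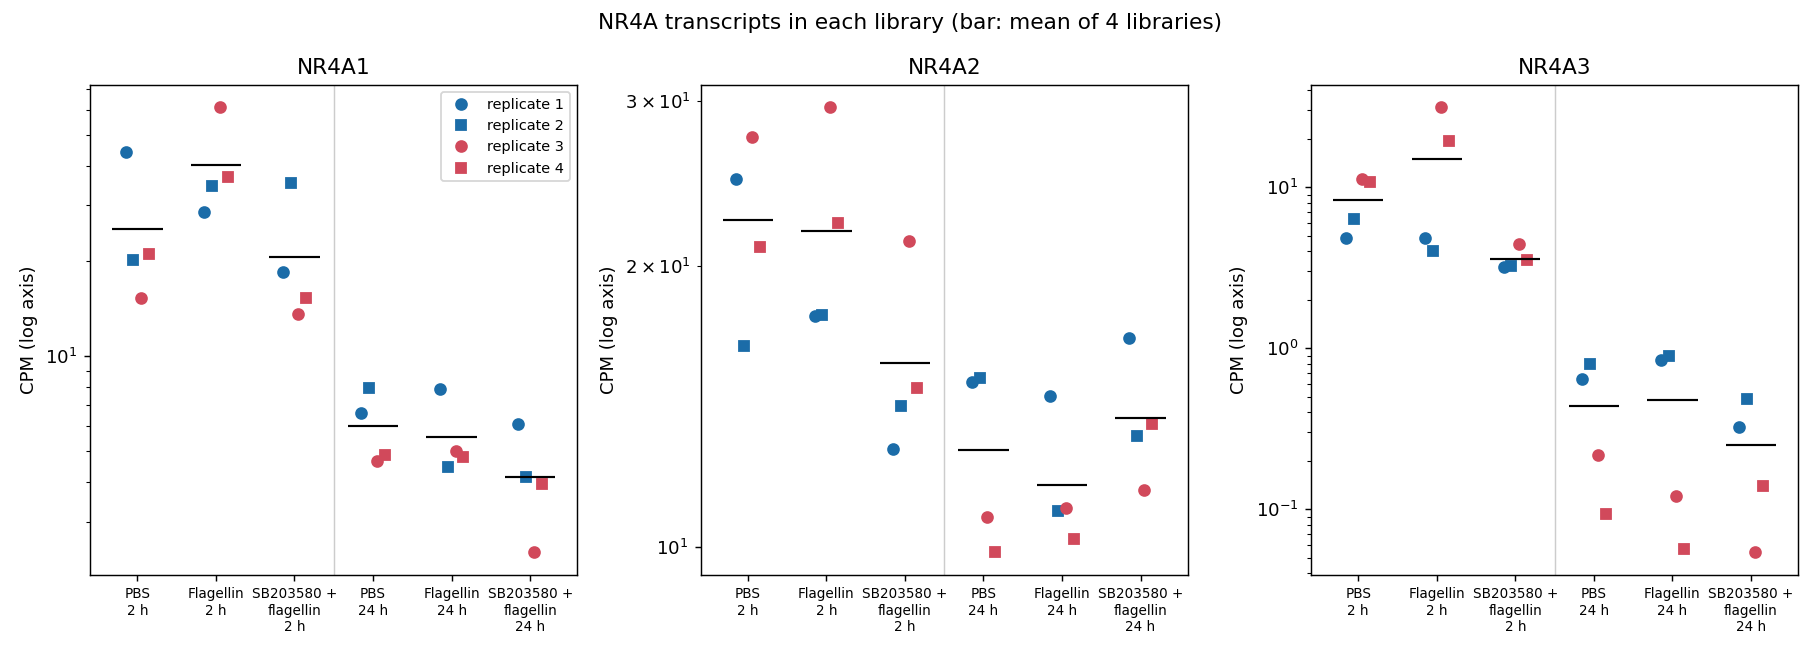
Level of each member in CPM (y axis, log scale, a separate range per panel) in each of the 24 libraries, by group (x axis). Points are libraries, coloured and shaped by replicate number, and bars are means of 4 libraries. The 24 h libraries of NR4A1 and NR4A3 all lie below their 2 h libraries, and replicates 3 and 4 of NR4A3 lie lowest at 24 h in all 3 conditions and highest in flagellin at 2 h.

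The balance between the members also differed between the times. Per exonic length, as TPM, NR4A1 lay above NR4A2 in 10 of 12 libraries at 2 h, and NR4A2 lay above NR4A1 in 12 of 12 libraries at 24 h. NR4A3 was the lowest member in all 24 libraries. In PBS, NR4A1 made up 48.7% ± 13.2 (SD, n = 4) of the summed TPM of the family at 2 h and 34.8% ± 2.03 (SD, n = 4) at 24 h. The share of NR4A2 was 39.4% ± 8.43 (SD, n = 4) and 63.6% ± 2.26 (SD, n = 4), and that of NR4A3 was 11.8% ± 5.28 (SD, n = 4) and 1.53% ± 0.946 (SD, n = 4). The summed level of the family was 28.7 ± 8.14 TPM (SD, n = 4) at 2 h and 10.2 ± 1.62 TPM (SD, n = 4) at 24 h in PBS. With flagellin the sums were 39.2 ± 16.8 TPM (SD, n = 4) and 9.03 ± 2.29 TPM (SD, n = 4), and with SB203580 plus flagellin they were 20.8 ± 5.24 TPM (SD, n = 4) and 9.19 ± 1.03 TPM (SD, n = 4).

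NR4A1 is the member best known as a gene induced by growth factors and by receptor stimulation in lymphocytes. In PBS at 2 h its levels in replicates 1 to 4 were 44.4, 20.1, 15.3 and 21.0 CPM. At 24 h the PBS libraries had 6.61, 7.95, 4.67 and 4.89 CPM. The 2 h and 24 h groups did not overlap in any condition, since all 12 libraries at 24 h lay at or below 7.95 CPM and all 12 at 2 h at or above 13.6 CPM. In edgeR's quasi-likelihood test, with Benjamini-Hochberg adjustment over 14172 genes and an adjusted p under 0.05 as the threshold, NR4A1 fell by 2.06 on the log2 scale from 2 h to 24 h in PBS (SE 0.370, adjusted p = 0.00147), lower in 4 of 4 replicate numbers. The log2 difference was -2.86 with flagellin (SE 0.380, adjusted p = 9.42e-05) and -2.32 with SB203580 plus flagellin (SE 0.375, adjusted p = 0.000814). The fall passed the threshold within replicates 1 and 2 alone and within replicates 3 and 4 alone in all 3 conditions. In replicates 1 and 2 alone edgeR called 1078 of 14183 genes lower in PBS, 731 with flagellin and 693 with SB203580 plus flagellin. In replicates 3 and 4 alone these counts were 1601, 1937 and 1755 of 13939 genes.

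NR4A3 had the steepest fall of the family. In PBS at 2 h its levels in replicates 1 to 4 were 4.83, 6.32, 11.2 and 10.7 CPM, and in PBS at 24 h they were 0.642, 0.802, 0.217 and 0.0933 CPM, from 20, 26, 7 and 3 counts. It fell by 4.23 on the log2 scale in PBS (SE 0.828, edgeR adjusted p = 0.00289), the 5th lowest value of the 14172 genes. The log2 difference was -4.96 with flagellin (SE 0.850, adjusted p = 0.00119), the 2nd lowest value, and -3.85 with SB203580 plus flagellin (SE 0.842, adjusted p = 0.00778), the 8th lowest. When only the flagellin libraries of both times entered the edgeR fit, the value was -4.96 with an adjusted p of 0.0530, and without flagellin replicate 3 at 2 h, in the fit of all groups, it was -4.30 (adjusted p = 0.00509).

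In every condition the NR4A3 difference between the times was larger in replicates 3 and 4 than in replicates 1 and 2. In PBS the level at 2 h was 7.53 and 7.88 times that at 24 h in replicates 1 and 2. In replicate 3 it was 51.8 times as high and in replicate 4 it was 115 times as high (95% counting interval 39.0 to 559, on 3 counts at 24 h). With flagellin the ratios were 5.70 and 4.50 in replicates 1 and 2, 261 in replicate 3 and 342 in replicate 4 (95% counting interval 94.4 to 2832, on 2 counts). With SB203580 plus flagellin they were 9.89 and 6.64 in replicates 1 and 2, 81.9 in replicate 3 (95% counting interval 22.3 to 682, on 2 counts) and 25.2 in replicate 4. These intervals cover counting error only. Fitted within a set, the log2 difference in PBS was -2.92 in replicates 1 and 2 and -6.10 in replicates 3 and 4. It was -2.34 and -8.12 with flagellin and -2.96 and -5.33 with SB203580 plus flagellin. Each of these 6 values passed the threshold in edgeR, beside the counts of genes called lower in the same fits, given above for NR4A1. The difference between the sets was not tested.

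NR4A2, the member required for midbrain dopamine neurons, had the smallest differences between the times. In PBS at 2 h its levels in replicates 1 to 4 were 24.8, 16.4, 27.5 and 20.9 CPM, and at 24 h they were 15.0, 15.2, 10.8 and 9.86 CPM. The groups did not overlap, but replicate 2 was at 16.4 CPM at 2 h and at 15.2 CPM at 24 h. NR4A2 fell by 0.82 on the log2 scale in PBS (SE 0.209, edgeR adjusted p = 0.0165) and fell by 0.90 with flagellin (SE 0.209, adjusted p = 0.0107). With SB203580 plus flagellin the libraries had 12.7, 14.2, 21.3 and 14.8 CPM at 2 h and 16.7, 13.1, 11.5 and 13.5 CPM at 24 h. These groups overlapped, and the difference of -0.20 (SE 0.208, 95% interval -0.63 to 0.23) did not pass the threshold (adjusted p = 0.665). Whether the fall of NR4A2 differed between the conditions was not tested.

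The calls for NR4A2 were lost without any of 4 libraries, 3 of PBS and 1 of flagellin. In PBS the edgeR adjusted p was 0.0625 without PBS replicate 3 at 2 h, 0.0576 without PBS replicate 3 at 24 h and 0.0571 without PBS replicate 4 at 24 h. With flagellin it was 0.0557 without flagellin replicate 3 at 2 h. With only the groups compared in the fit it was 0.0656 for PBS and 0.0636 for flagellin. In replicates 1 and 2 alone the differences were -0.43 in PBS (adjusted p = 0.219) and -0.47 with flagellin (adjusted p = 0.211), and in replicates 3 and 4 alone they were -1.22 (adjusted p = 0.00182) and -1.29 (adjusted p = 0.000871). In replicates 3 and 4 alone edgeR called 1601 of 13939 genes lower in PBS and 1937 with flagellin.

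The time comparisons moved many genes. In PBS edgeR called 10.2% of all tested genes, with 4.88% lower and 5.28% higher at 24 h, so calls of all 3 members there stand against a sizeable background. With flagellin 7.9% of genes were called, 3.68% lower and 4.23% higher, and with SB203580 plus flagellin 6.88%, 3.18% lower and 3.7% higher. Groups that did not overlap, with all 24 h libraries lower, were found for 8.24% of genes in PBS, 7.12% with flagellin and 5.88% with SB203580 plus flagellin. DESeq2 also called 3, 3 and 2 of the 3 members. Of all genes with an adjusted p it called 1982 of 14574 in PBS, 1611 of 14574 with flagellin and 1471 of 14950 with SB203580 plus flagellin. The flagellin libraries at 2 h and those of SB203580 plus flagellin at 2 h also formed the comparison known when the genes were chosen, while the PBS libraries of both times took no part in it.

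Markers of other cell types also moved with time. The 6 matched endothelial markers summed to 96.5 to 262 CPM in PBS at 2 h and to 350 to 519 CPM in PBS at 24 h, and 1 of 4 tested, TIE1, rose (log2 difference 1.403, SE 0.295, edgeR adjusted p = 0.00526). At an unadjusted p under 0.05 edgeR had 3 of 4 higher, beside 24.4% of all genes in either direction. DESeq2 raised 3 of the 4. Of all genes in PBS, edgeR called 5.28% higher and 4.88% lower, and DESeq2 called 976 of 14574 higher. Most of that sum was KDR (192.8 ± 78.7 CPM at 2 h and 398 ± 76.7 CPM at 24 h, SD, n = 4), while the endothelial cadherin gene CDH5 was at most at 0.0558 CPM in any library. Of 9 tested leukocyte markers 2 rose in PBS, among them the macrophage gene CD68 by 1.37 on the log2 scale (SE 0.261, adjusted p = 0.00232), and the summed level of the 15 matched ones was 32.3 to 62.8 CPM at 2 h and 43.3 to 58.0 CPM at 24 h. DESeq2 also raised 2 of the 9. The squamous markers summed to 1967 to 10672 CPM in PBS at 2 h and to 1679 to 2677 CPM at 24 h, and none of 6 was called by edgeR or DESeq2. The part of these markers in the falls of the NR4A genes was not tested.

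**Figure D2:**
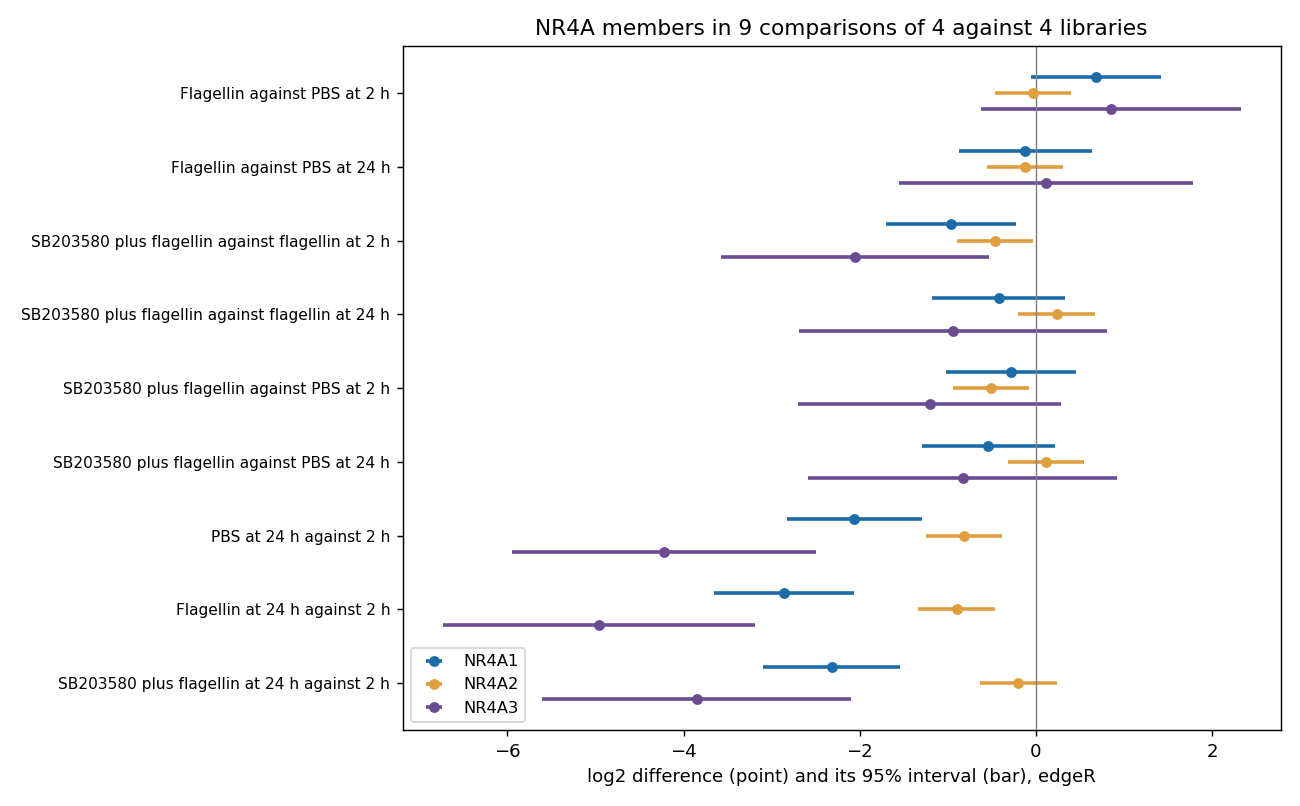
Difference of each member in 9 comparisons of 4 against 4 libraries (x axis, log2 scale), with points for the fitted value and bars for its 95% interval in edgeR. In the 3 lowest comparisons, 24 h against 2 h, NR4A3 lies at -4.96 to -3.85 and NR4A1 at -2.86 to -2.06, and NR4A2 at -0.90 to -0.20. For SB203580 plus flagellin against flagellin at 2 h the bars describe precision only, because the genes were chosen with that comparison known.

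Flagellin did not move the family past the threshold at 2 h. For NR4A1 the flagellin libraries at 2 h had 28.6, 34.6, 61.3 and 36.9 CPM in replicates 1 to 4, a mean of 40.4 ± 14.4 CPM (SD, n = 4), and overlapped the PBS libraries given above through PBS replicate 1. The log2 difference was 0.68 (SE 0.354, 95% interval -0.058 to 1.42, edgeR adjusted p = 1), higher in 3 of 4 replicate numbers. NR4A2 had 17.7, 17.7, 29.6 and 22.2 CPM with flagellin, a mean of 21.8 ± 5.60 CPM (SD, n = 4), and differed by -0.039 (SE 0.207, 95% interval -0.47 to 0.39, adjusted p = 1). NR4A3 had 4.83, 4.03, 31.4 and 19.4 CPM, a mean of 14.9 ± 13.1 CPM (SD, n = 4), and differed by 0.85 (SE 0.707, 95% interval -0.62 to 2.32, adjusted p = 1). Neither edgeR nor DESeq2 called a member, and none had an unadjusted p under 0.05 in either, where edgeR called 0.325% of all genes, 0.296% as higher. In the same libraries CXCL8, the neutrophil chemoattractant, was at 33.4 ± 18.4 CPM (SD, n = 4) in PBS and at 654.6 ± 67.8 CPM (SD, n = 4) with flagellin.

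For flagellin at 2 h, only replicates 3 and 4 gave calls for NR4A1 and NR4A3 when each set was fitted alone. In replicates 3 and 4 alone the edgeR difference from PBS was 1.44 for NR4A1 (SE 0.253, adjusted p = 0.0160) and 1.22 for NR4A3 (SE 0.243, adjusted p = 0.0256). In replicates 1 and 2 alone it was -0.033 for NR4A1 (adjusted p = 0.995) and -0.33 for NR4A3 (adjusted p = 0.893). Of all genes edgeR called 187 of 13939 higher in replicates 3 and 4 alone and 20 of 14183 in replicates 1 and 2 alone. These fits, chosen after the data were seen, rest on 2 libraries per group and share their flagellin libraries with the comparison known when the genes were chosen, and the difference between the sets was not tested. NR4A2 differed by -0.22 in replicates 1 and 2 (adjusted p = 0.916) and by 0.11 in replicates 3 and 4 (adjusted p = 0.889).

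**Figure D3:**
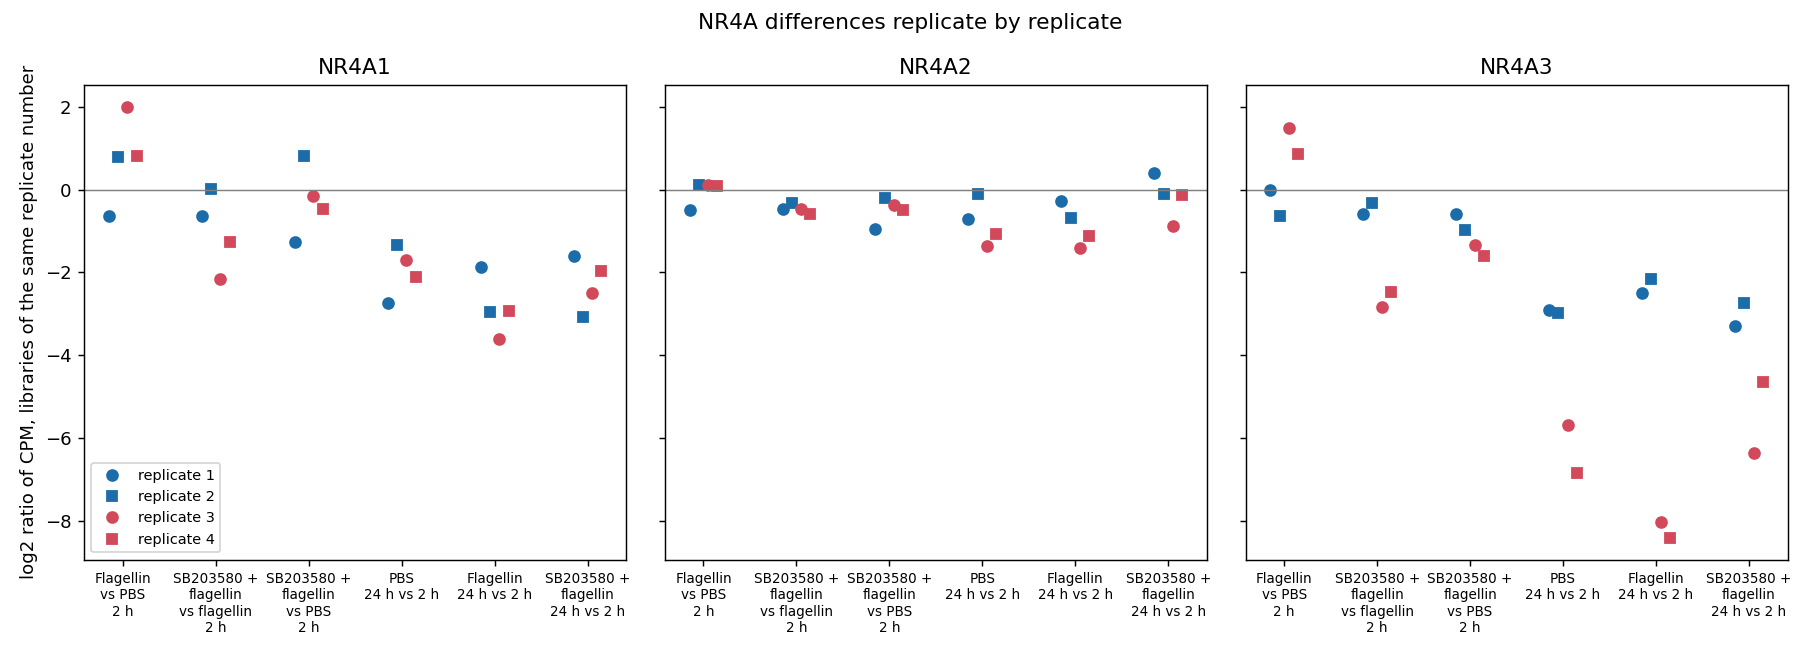
Log2 ratio of CPM between libraries of the same replicate number (y axis) for each member in 6 comparisons (x axis), with colour for the set of replicates. For NR4A3 the replicates 3 and 4 (red) lie furthest from 0 in all 6 comparisons shown, up to 342-fold between flagellin at 2 h and 24 h in replicate 4.

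At 24 h no member passed the test for flagellin against PBS. NR4A1 with flagellin was at 7.88, 4.48, 5.02 and 4.80 CPM in replicates 1 to 4, NR4A2 at 14.5, 10.9, 11.0 and 10.2 CPM, and NR4A3 at 0.847, 0.895, 0.120 and 0.0568 CPM. The log2 differences from PBS were -0.12 for NR4A1 (95% interval -0.87 to 0.63), -0.12 for NR4A2 (95% interval -0.56 to 0.31) and 0.11 for NR4A3 (95% interval -1.56 to 1.78). Neither edgeR nor DESeq2 called a member, none reached an unadjusted p under 0.05, and edgeR called 0% of all genes. The NR4A3 libraries of these groups held 2 to 30 counts, so that only a large difference could be detected. The interaction of flagellin with time, the flagellin difference at 2 h minus that at 24 h, was 0.80 for NR4A1 (SE 0.505), 0.085 for NR4A2 (SE 0.294) and 0.74 for NR4A3 (SE 1.07). It passed for no member in edgeR or DESeq2, which gave NR4A3 no adjusted p, nor at an unadjusted p under 0.05, against 0.0423% of all genes called by edgeR.

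With SB203580 before flagellin, all members had lower means at 2 h than with flagellin alone. NR4A3 was at 3.19, 3.22, 4.41 and 3.52 CPM in replicates 1 to 4, a mean of 3.58 ± 0.570 CPM (SD, n = 4). These 4 values lay close together, whereas those with flagellin alone, given above, ran from 4.03 to 31.4 CPM. NR4A1 was at 18.5, 35.2, 13.6 and 15.3 CPM, a mean of 20.7 ± 9.92 CPM (SD, n = 4), and NR4A2 had a mean of 15.7 ± 3.78 CPM (SD, n = 4). The log2 differences from flagellin were -0.97 for NR4A1 (SE 0.356), -0.47 for NR4A2 (SE 0.208) and -2.06 for NR4A3 (SE 0.732), the last the 3rd lowest of all genes. NR4A2 and NR4A3 were lower in 4 of 4 replicate numbers and NR4A1 in 3 of 4, and the groups overlapped for each member. In replicates 1 and 2 alone the differences were -0.24, -0.40 and -0.47 for NR4A1, NR4A2 and NR4A3, and in replicates 3 and 4 alone they were -1.77, -0.52 and -2.68. Without flagellin replicate 3 the NR4A3 difference was -1.395. The share of all genes that edgeR called in this comparison was 0.00706%.

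Against PBS at 2 h, which shares its SB203580 libraries with the comparison just described, NR4A3 was lower by a log2 difference of -1.20 (SE 0.716, 95% interval -2.70 to 0.29, edgeR adjusted p = 1.000). The groups did not overlap, the highest SB203580 library being at 4.41 CPM and the lowest PBS library at 4.83 CPM, as was the case in this direction for 2.15% of all genes. In replicates 3 and 4 alone the difference was -1.46 (SE 0.256) and in replicates 1 and 2 alone it was -0.80, both given without a test because the low level of NR4A3 in these libraries was known when it was chosen. NR4A2 differed by -0.51 (SE 0.208, 95% interval -0.94 to -0.075, adjusted p = 0.885), lower in 4 of 4 replicate numbers. NR4A1 differed by -0.29 (SE 0.354, 95% interval -1.02 to 0.45) and overlapped PBS. Neither edgeR nor DESeq2 called a member, and edgeR called 0.183% of all genes. In each tool 1 member had an unadjusted p under 0.05, beside 4.75% of all genes in edgeR.

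At 24 h the SB203580 libraries had 6.10, 4.17, 2.397 and 3.93 CPM of NR4A1, lower than flagellin in 4 of 4 replicate numbers. NR4A2 was higher than with flagellin in 4 of 4 replicate numbers and NR4A3 in 1 of 4. The groups overlapped for each member. The log2 difference from flagellin was -0.42 for NR4A1 (95% interval -1.18 to 0.33), 0.23 for NR4A2 (95% interval -0.20 to 0.67) and -0.94 for NR4A3 (95% interval -2.69 to 0.81). NR4A3 was at 0.323, 0.484, 0.0539 and 0.139 CPM, from 9, 15, 2 and 5 counts. Against PBS at 24 h the differences were -0.54, 0.11 and -0.83 for NR4A1, NR4A2 and NR4A3. No member was called against flagellin or PBS at 24 h by edgeR or DESeq2, and none had an unadjusted p under 0.05. The shares of all genes that edgeR called were 0% against flagellin and 0.00706% against PBS.

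Ordered by mean, NR4A1 ran from flagellin through PBS to SB203580 plus flagellin at 2 h, and the 24 h groups followed in the order PBS, flagellin, SB203580 plus flagellin. Neighbours within a time overlapped and the only gap lay between the times. NR4A3 had the same order of groups at 2 h, with a gap of ranges between PBS and SB203580 plus flagellin and a further one before the 24 h groups. NR4A2 was highest in PBS and flagellin at 2 h, and its SB203580 plus flagellin groups of both times overlapped.

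Among other members of the nuclear receptor superfamily 28 of 45 listed genes were tested. In PBS 4 of 28 rose over time, where 5.28% of all genes rose, with a list median of 0.23 against -0.0090 over all genes. Among them were NR2C1, the testicular receptor TR2, by 0.59 on the log2 scale (SE 0.116, edgeR adjusted p = 0.00288), the retinoid X receptor RXRB, a dimer partner of other receptors, by 0.32, and the thyroid hormone receptor THRA by 0.36. With flagellin 3 of 28 rose and with SB203580 plus flagellin 4 of 28, NR2C1 and RXRB in both, and the retinoic acid receptor RARB with SB203580 plus flagellin by 0.66. In edgeR or DESeq2 0 of 28 were called lower at 24 h in any of the 3 conditions. Of all genes edgeR called 4.88% lower in PBS, 3.68% with flagellin and 3.18% with SB203580 plus flagellin. The called count of 0 stands near that background. At an unadjusted p under 0.05 in edgeR, 7, 6 and 8 of 28 were higher and 0 were lower, in the same order of conditions. Such a p was found for 24.4%, 21.6% and 20.3% of all genes in either direction. At 2 h and 24 h, flagellin or SB203580 moved 0 of 28 past the threshold in edgeR or DESeq2. At an unadjusted p under 0.05 edgeR had 1, higher, for flagellin against PBS at 2 h and 0 at 24 h. Of all genes 5.09% and 0.79% had such a p there. For SB203580 plus flagellin edgeR had 0 against PBS at 2 h, beside 4.75% of all genes. At 24 h it had 1, higher, against PBS and 1, higher, against flagellin, beside 4.25% and 2.86% of all genes. Against flagellin at 2 h, known when the genes and lists were chosen, edgeR had 1, lower, beside 2.27% of all genes.

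**Figure D4:**
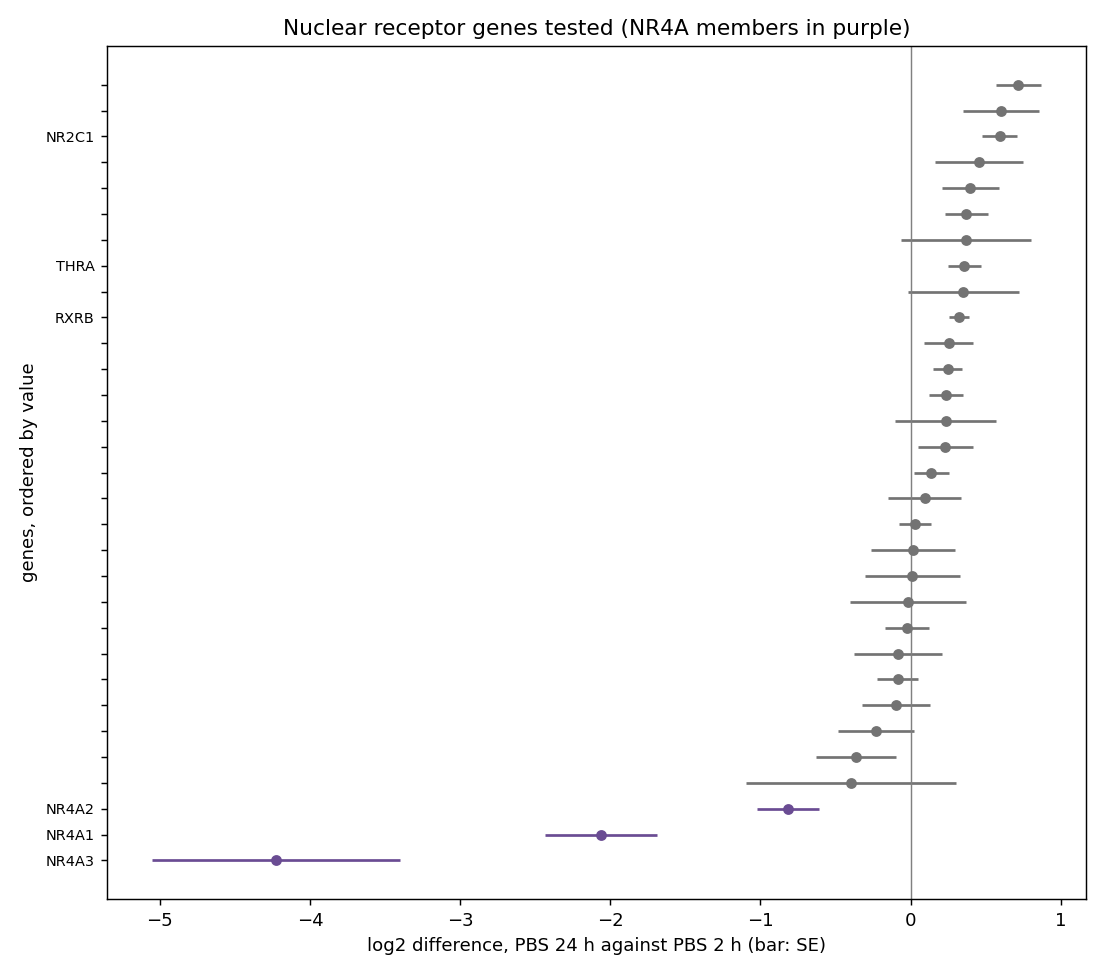
Log2 difference between PBS at 24 h and PBS at 2 h (x axis, points, with the SE as bars) for the 28 other nuclear receptor genes tested (grey) and the 3 NR4A members (purple), ordered by value (y axis), with labels for the members, NR2C1, RXRB and THRA. NR4A1, NR4A2 and NR4A3 are the 3 lowest, from -4.23 to -0.82.

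Immediate early genes of other families were in part lower at 24 h. Of 24 listed genes 21 were tested, and 4 fell in PBS, 5 with flagellin and 3 with SB203580 plus flagellin, beside 4.88%, 3.68% and 3.18% of all genes, and 0 rose. DESeq2 lowered 5, 6 and 3 and raised 0, and in edgeR 0 were higher at an unadjusted p under 0.05. Of all genes DESeq2 lowered 1006 of 14574 in PBS, 732 of 14574 with flagellin and 706 of 14950 with SB203580 plus flagellin. The list median in PBS was -0.39. FOSB, a subunit of the AP-1 factor, fell by 3.04 on the log2 scale in PBS (SE 0.753, edgeR adjusted p = 0.0138) and its difference was -3.30 with flagellin. ATF3, a stress-induced repressor of the CREB and ATF family, fell by 1.29 in PBS (SE 0.159, adjusted p = 5.51e-05). IER3, a survival gene induced by NF-κB, fell by 1.73 with flagellin (SE 0.337, adjusted p = 0.00316). For flagellin against PBS at 2 h the list median was 0.45 and edgeR called 0 of 21. In edgeR 2 were higher at an unadjusted p under 0.05, beside 5.09% of all genes in either direction. DESeq2 called 1 higher, beside 84 of 14574 genes. For SB203580 plus flagellin against flagellin at 2 h, known when the genes and lists were chosen, the list median was -0.42 against 0.012 over all genes. There edgeR called 0 of 21, with 6 lower and 0 higher at an unadjusted p under 0.05, beside 2.27% of all genes. DESeq2 lowered 1, beside 9 of 12688 genes.

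Some genes known to respond to cAMP through CREB, the factor that also acts on NR4A promoters, were called lower at 24 h. Of 14 listed genes 11 were tested, and edgeR lowered 3 in PBS, 4 with flagellin and 1 with SB203580 plus flagellin and raised 0, with 0 higher at an unadjusted p under 0.05, beside 4.88%, 3.68% and 3.18% of all genes called lower. DESeq2 lowered 5, 4 and 2 and raised 0, beside its counts over all genes given above for the immediate early genes. PDE4B, a phosphodiesterase that degrades cAMP, fell by 2.17 on the log2 scale in PBS (SE 0.252, adjusted p = 3.4e-05), and its differences were -2.36 with flagellin and -1.60 with SB203580 plus flagellin. SIK1, a kinase that restrains CREB coactivators, fell by 1.09 in PBS, and AREG, an EGF receptor ligand, fell by 1.08. For SB203580 plus flagellin against flagellin at 2 h, known when the genes and lists were chosen, the list median was -0.66. There edgeR and DESeq2 called 0, and edgeR had 4 of 11 lower and 0 higher at an unadjusted p under 0.05. Of all genes 2.27% had such a p in either direction. These counts are a description and not a test of the list. For flagellin against PBS at 2 h the list median was 0.22, with 0 called by edgeR or DESeq2. In edgeR 2 were higher at an unadjusted p under 0.05, beside 5.09% of all genes in either direction.

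A few genes that act upstream of the family, or with it, were called over time. The counts were too small to set either list apart from all genes. Of 33 upstream kinases and transcription factors tested, edgeR raised 2 in PBS over time, where 5.28% of all genes rose, and lowered 0, where 4.88% fell, with 1 lower at an unadjusted p under 0.05 and 1 lower in DESeq2. The raised genes were HDAC7, a class IIa deacetylase that represses MEF2 targets, by 0.56 on the log2 scale (SE 0.105, adjusted p = 0.00218), and MAPK3, the kinase ERK1, by 0.47. With flagellin 2 rose and 1 fell, the latter being CREB1, which fell by 0.59 (SE 0.146, adjusted p = 0.0160), and with SB203580 plus flagellin 2 rose and 1 fell. Of 16 dimer partners, corepressors and coactivators, 2 rose and 1 fell in each condition, where edgeR called 10.2% of all genes in PBS, 7.9% with flagellin and 6.88% with SB203580 plus flagellin. HDAC1, a corepressor deacetylase, fell by 0.61 in PBS (SE 0.144, adjusted p = 0.0108), while RXRB (0.32) and the coactivator NCOA3 (0.31) rose.

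Of 39 genes listed as NR4A targets reported in other tissues, 21 were tested. In PBS 2 rose over time and 0 fell in edgeR, beside 5.28% and 4.88% of all genes, with 1 lower at an unadjusted p under 0.05 and 0 lower in DESeq2. SPP1, the secreted phosphoprotein osteopontin, rose by 1.72 on the log2 scale in PBS (SE 0.465, adjusted p = 0.0230). With flagellin 0 rose and 1 fell, which was NFKBIA with a log2 difference of -2.19 (SE 0.568, adjusted p = 0.0208), and 2 were higher at an unadjusted p under 0.05 and 2 in DESeq2. NFKBIA, the inhibitor of NF-κB that is itself an NF-κB target, was the only listed gene of the pathway lists that edgeR called for flagellin against PBS at 2 h, and it rose by 2.89 (SE 0.584, adjusted p = 0.0285). With SB203580 plus flagellin 1 rose over time and 0 fell, with 1 lower at an unadjusted p under 0.05 and 1 lower in DESeq2. Over the 6 pathway lists edgeR called 0 genes for flagellin against PBS at 24 h, with 0 at an unadjusted p under 0.05 and 0 in DESeq2. It called 0 for SB203580 plus flagellin against PBS at 2 h (9 unadjusted, 2 in DESeq2) and at 24 h (5 and 1), against flagellin at 24 h (5 and 0), and for the interaction of flagellin with time (5 and 0). In that order, 4.75%, 4.25%, 2.86% and 1.66% of all genes had an unadjusted p under 0.05 in edgeR. The lists held 21, 11, 33, 16, 21 and 28 tested genes, and a gene in more than 1 list, such as RXRB, counts once in each.

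The genes whose log2 CPM followed each member most closely were sought over the 24 libraries after the mean of each replicate number was subtracted, and are given as a description. For NR4A3 the closest was FOSB (r = 0.97), followed by SEC23B, LRRC59, RANBP1 and EIF4A3 (r = 0.95). For NR4A1 the closest were SGMS2 and SLC25A25 (r = 0.95), ATF3, FARSA and MRPL58 (r = 0.93). For NR4A2 they were ATP1B1 (r = 0.92), YAE1, CAPN14, QRSL1 and HINT3 (r = 0.89). Without the subtraction, 2 of the 5 genes stayed among the closest for NR4A1 (ATF3, FARSA), 3 for NR4A2 (YAE1, CAPN14, QRSL1) and 2 for NR4A3 (FOSB, EIF4A3). Among the members, r was 0.91 between NR4A1 and NR4A3, 0.87 between NR4A2 and NR4A3 and 0.80 between NR4A1 and NR4A2. The points share libraries, depth and the split between 2 h and 24 h.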

How the data were processed

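The deposited table holds whole-number read counts per gene made by the authors with STAR 2.4.0a, featureCounts and Subread 1.4.6-p1, per the submitters' processing notes, which name the mouse build GRCm38. The features are pig genes, and the sources used here do not give the pig assembly or the use of strand. Features that are not pig genes (at most 0.00514% of counts) were left out. Symbols came from a table of pig identifiers. Counts of 24 libraries were fitted with edgeR 4.0.16 (R 4.3.3; TMM, filterByExpr, robust quasi-likelihood F test), with a term for each of 6 groups and no block, and adjusted over 14172 genes; an adjusted p under 0.05 was a call. An SE is the log2 difference divided by the square root of F. The test was checked on simulated counts for flagellin against PBS at 2 h only. The spread between simulated libraries was capped and the sets of replicates did not differ, so the check does not cover the split seen in these libraries.

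The genes, lists and tests were chosen with earlier results of these data known. Lists are described by counts and medians. Named from each list were genes called for flagellin at 2 h and up to 3 with the largest called change elsewhere, together with the 5 best-correlated genes per member, except that some items are not reported here; RARB, THRA, RXRB, NCOA3, MAPK3, CREB1, the marker genes and the Y-linked gene were named after their values were seen. Same-numbered libraries deviated together (correlations over genes of 0.211 to 0.797, all 60 pairs over 0.1). Correlations with the other number of the same set were as high (median 0.603 against 0.599), and those across sets were negative (median -0.583). The values therefore show the split between the sets and cannot show that libraries of the same number are paired within a set. Ratios by replicate number are given as a description. Alternatives were a replicate block, a set term (replicates 1 and 2 against 3 and 4) per time, RLE factors, no filter, DESeq2 1.42.0, only the groups compared, each library left out and, added after seeing the data, each set alone. No 2 libraries of a group were duplicates (chi-square per gene 10.8 to 412 over 36 pairs).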

Additional observations from a re-analysis of the deposited data

Results flagged for a closer look

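Among the groups of 4 libraries of the 3 members, 18 in all, 1 library stood apart from the rest of its group by Dixon's criterion. NR4A1 in flagellin at 24 h was at 7.88 CPM in replicate 1, and its gap to the nearest library was 0.839 of the range of the group, above the 95% critical value for 4 libraries. Chance flags about 1 in 20 such groups.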

How the results depend on the processing

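Values are log2 differences. The replicate block changed no call and no direction of a member; with it NR4A3 in PBS over time was at -4.22. RLE factors, no filter and DESeq2 also kept every call and direction, DESeq2 giving no adjusted p for the NR4A3 interaction. With a term for the set, NR4A2 over time with SB203580 plus flagellin was 0.19; that fit's time values describe replicates 1 and 2. With only the groups compared, NR4A2 over time in PBS was -0.81 and with flagellin -0.90, and NR4A3 with flagellin -4.96, none called. Replicates 1 and 2 alone gave, for flagellin against PBS at 2 h, NR4A1 -0.033 and NR4A3 -0.33; for SB203580 plus flagellin against flagellin at 2 h, NR4A1 -0.24 and NR4A3 -0.47; against PBS at 24 h, NR4A2 -0.034; over time, NR4A2 -0.43 in PBS, -0.47 with flagellin and 0.16 with SB203580 plus flagellin; and for the interaction, NR4A3 -0.58. Replicates 3 and 4 alone gave, for flagellin against PBS, NR4A1 1.44, NR4A2 0.11 and NR4A3 1.22 at 2 h and NR4A1 0.038, NR4A2 0.038 and NR4A3 -0.80 at 24 h; for SB203580 plus flagellin against flagellin, NR4A1 -1.77 at 2 h and NR4A3 0.11 at 24 h; and against PBS at 2 h, NR4A3 -1.46. Both sets hold fewer samples, and the cause of these differences was not tested. Leaving out each library gave, for flagellin against PBS, NR4A2 -0.22 to 0.075 at 2 h and, at 24 h, NR4A1 -0.34 to 0.042 and NR4A3 -0.35 to 0.58; for SB203580 plus flagellin against PBS at 2 h, NR4A1 -0.67 to 0.13; for NR4A2 over time, -0.94 to -0.70 in PBS (call lost without PBS replicate 3 at 2 h, PBS replicate 3 at 24 h or PBS replicate 4 at 24 h) and -1.02 to -0.71 with flagellin (lost without flagellin replicate 3 at 2 h); and for the NR4A2 interaction, -0.099 to 0.21. Counts of called genes moved with the setting: 46 for flagellin against PBS at 2 h was 15 to 42 with a library left out and 20 to 318 under other settings, 26 for SB203580 plus flagellin against PBS at 2 h was 10 to 25 and 6 to 281, and over time 1440 in PBS was 835 to 1319 and 532 to 4878, 1120 with flagellin was 710 to 1029 and 300 to 4427, and 975 with SB203580 plus flagellin was 625 to 836 and 118 to 4354. The 6 of the interaction were 4 to 74 under other settings, the 1 for SB203580 plus flagellin against flagellin at 2 h was 0 to 93, and the 0 at 24 h was 0 to 13. The counts for 24 h against PBS were 0 to 65 with SB203580 and 0 to 1 without. At 24 h NR4A3 had 2 to 30 counts, which limits what differences between treatments could be detected.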
